A study of Mus musculus with 6 samples.

Results

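The ISG15 conjugation machinery is described here as 5 genes of the 22274 in the deposited expression table: the modifier Isg15, its activating enzyme Uba7, its conjugating enzyme Ube2l6, its ligase Herc6 and its protease Usp18. They were chosen by name for their roles, with earlier results of these libraries known, and each had 1 row in the table. ISG15 is a small ubiquitin-like protein that cells make in response to interferon. It is attached to other proteins in a chain of steps: UBA7 activates it, UBE2L6 carries it, and a ligase, HERC6 in the mouse, passes it to the target protein. USP18 removes it again, and USP18 also binds the interferon receptor and damps its signal. Genes of this chain are themselves induced by interferon, and in the kidney interferon responses are known from viral infection, lupus nephritis and acute injury.

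RNA-seq libraries, 6 in number, came from cultured mouse cells that bear the label primary renal fibroblasts. All had TGF-β, a cytokine that activates fibroblasts, at 5 ng/ml for 48 h. Wild-type cells of 3 libraries carried a scrambled control siRNA. In the other 3 the cells had Prune2 knocked down by siRNA. Strain, age and sex of the mice, the siRNA sequences and the origin of the replicates are not stated by the labels. The p-values hence reflect variation among these 6 libraries, part or all of which may be technical. No library without TGF-β was analysed here. Levels are CPM, read counts scaled to a common library size by TMM, and a gene is called changed at a Benjamini-Hochberg adjusted p under 0.05 in edgeR's quasi-likelihood test over all genes tested. A positive log2 fold change means a higher level with Prune2 siRNA.

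Library totals lay between 20075265 and 23234797 counts. Prune2 itself was at 133, 157 and 150 counts in the control libraries and at 80, 73 and 104 counts with Prune2 siRNA, which is 6.95 ± 0.775 CPM against 3.801 ± 0.629 (SD, n = 3 per group). The targeted gene was thus lower in every Prune2 siRNA library (log2 fold change -0.87, SE 0.152, adjusted p = 0.000214). On the deposited FPKM values, which are scaled to transcript length, the difference in Prune2 was smaller and missed the threshold (log2 fold change -0.43, adjusted p = 0.187 by limma on log2(FPKM + 0.1), and -0.24, adjusted p = 0.146, on log2(FPKM + 1)). These fits also differ from the main one in the test and in the constant added to each value. Why the difference was smaller was not tested. The cell label was set against 12 fibroblast and 18 tubular epithelial markers, which gave a mixed picture. Some fibroblast transcripts were scarce, with Thy1 at 0.594 ± 0.216 CPM and S100a4 at 0.920 ± 0.342 in control cells, and Dcn and Lum at 50 and 6 counts summed over all 6 libraries. Others were well detected, with Fn1 at 26295 ± 320.1 CPM, Vim at 569.8 ± 31.2, Col1a1 at 236 ± 3.42, Col1a2 at 86.0 ± 6.95, Pdgfrb at 19.7 ± 3.35, Col3a1 at 15.7 ± 2.14 and Postn at 15.2 ± 1.25. Epithelial keratin and adhesion transcripts were abundant in the same control libraries, with Krt8 at 2420 ± 52.6 CPM and Cdh1 at 1055 ± 26.4. Some markers of single tubule segments were low or absent, with Umod at 1.38 ± 0.330 CPM and Aqp2 and Slc34a1 at 0 counts in all 6 libraries. The cultures are therefore called by their label only.

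Markers of other cells differed between the groups. Over all 13248 genes tested, 10.3% were called in either direction, 591 of them higher and 773 lower. Of 22 leukocyte markers, all tested, 21 were called lower with Prune2 siRNA and 0 higher, with a median log2 fold change of -2.58. Their summed level lay between 252 and 309.5 CPM in the control libraries and between 63.2 and 67.5 CPM in the Prune2 siRNA libraries, and no marker of the list was at 0. Cd14 was the marker not called (7.54 ± 0.334 against 8.55 ± 1.03 CPM). Of 7 markers of plasmacytoid dendritic cells, the classical source of type I interferon, 4 passed the filter on low counts, of which Bst2, itself an interferon-induced gene, was called higher (13.9 ± 1.68 to 30.3 ± 5.42 CPM) and Irf8, Pacsin1 and Tcf4 were called lower. Siglech and Ccr9 were at 0 counts in all 6 libraries. Of 9 lymphocyte markers, 4 were at 0 counts throughout and 1, Cd4, passed the filter and was called lower (0.828 ± 0.385 to 0.0288 ± 0.0249 CPM, adjusted p = 5.74e-05). Of 14 endothelial markers tested, 7 were called lower and 0 higher, with a median log2 fold change of -0.47. Of 10 fibroblast markers tested, 5 were called lower and 0 higher, among them Vim (log2 fold change -0.53) and Fn1 (-0.44). Of 14 tubular epithelial markers tested, 4 were called higher and 3 lower. In bulk samples, fewer cells of a type and less RNA per cell cannot be told apart. Whether these changes in marker transcripts have any part in the results on the ISG15 genes was not tested.

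The promoters of Isg15 and Herc6 are shown because these genes had the largest and the smallest fold change of the 5. Both are the 250 bases before the RefSeq start on the GRCm38.p6 assembly, written 5′ to 3′ on the strand of the gene. Isg15 is on chr4:156200819-156201068, minus strand, and Herc6 on chr6:57580742-57580991, plus strand. Capitals mark matches to the interferon-stimulated response element (ISRE), the letters GAAANNGAAA on either strand, where IRF proteins, IRF9 among them, are known to bind.
Isg15: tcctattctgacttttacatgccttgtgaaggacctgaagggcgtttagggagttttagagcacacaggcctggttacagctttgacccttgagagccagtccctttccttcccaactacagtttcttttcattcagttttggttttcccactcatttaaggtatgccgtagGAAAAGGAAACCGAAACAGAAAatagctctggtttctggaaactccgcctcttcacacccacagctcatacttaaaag
Herc6: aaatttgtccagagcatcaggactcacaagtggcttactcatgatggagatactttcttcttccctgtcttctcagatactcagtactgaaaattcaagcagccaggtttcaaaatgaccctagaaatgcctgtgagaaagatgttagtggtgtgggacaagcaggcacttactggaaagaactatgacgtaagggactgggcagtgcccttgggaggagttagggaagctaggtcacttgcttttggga

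The Isg15 promoter held 3 overlapping ISRE matches, which together run from 78 to 57 bases before the start. The 250 bases shown for Herc6 held none. The promoter table listed 4 of the 5 genes, all but Usp18. Uba7 and Ube2l6 had no ISRE match in their 250 bases. The shorter IRF core, AANNGAAA on either strand, which every ISRE match contains, occurred in Isg15 and once in Uba7, on the minus strand 27 to 20 bases before the RefSeq start. That start (107975567) lies downstream of the annotated GENCODE start of Uba7 (107975505), so this match falls inside the gene as GENCODE draws it. It was not found in the windows of Ube2l6 and Herc6, and the gamma-activated site (GAS) motif TTCNNNGAA was found in none of the 4 windows. Among 32851 mouse promoter windows of this length in the same table, 2.98% held an ISRE match, 21.3% an IRF core and 7.02% the GAS motif. A match is a run of letters and no measurement of binding.

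All 5 genes passed the filter on low counts and all 5 were called higher with Prune2 siRNA. The background is that 10.3% of the 13248 genes tested were called in either direction and 4.46% were called higher. In each of the 5, every Prune2 siRNA library lay above every control library, a pattern shown by 11.9% of the genes tested. The median log2 fold change was 0.73 over the 5 genes, from 0.42 to 2.18, against 0.00416 over all genes tested. The sizes fell into a larger pair, Isg15 and Usp18, and a smaller group of Ube2l6, Uba7 and Herc6. These rises stood in the same libraries as the lower leukocyte (21 of 22), endothelial (7 of 14) and fibroblast (5 of 10) markers.

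**Figure D1:**
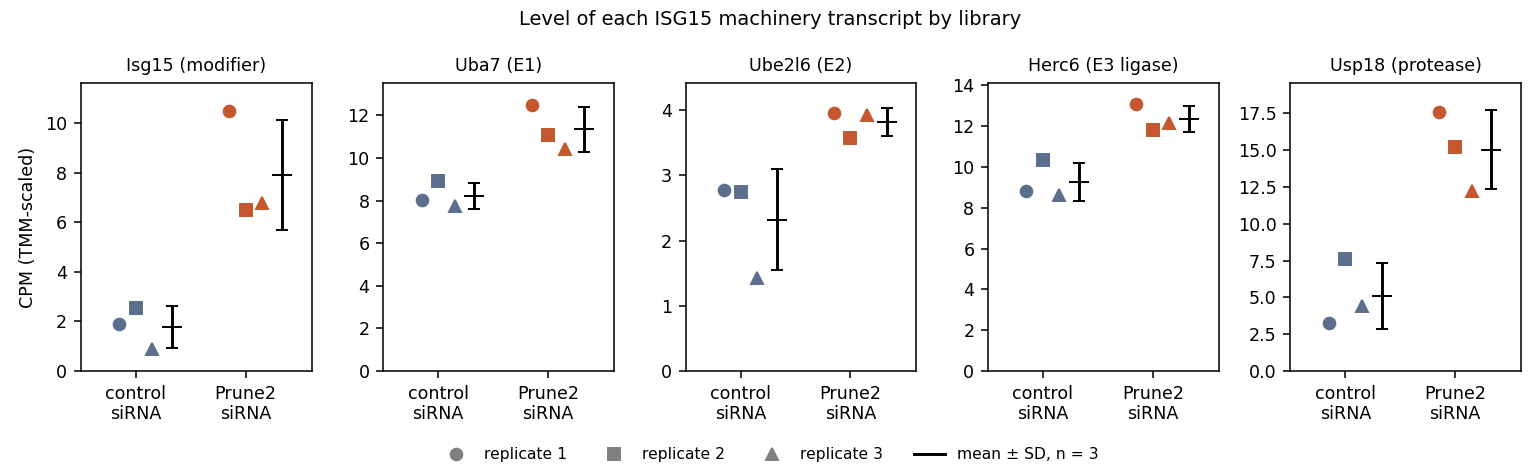
CPM with TMM scaling (vertical axes, each from 0) of the 5 ISG15 machinery transcripts in each library, with control siRNA libraries in blue and Prune2 siRNA libraries in orange, marker shape for the replicate number, and bars for mean ± SD (n = 3). In every panel the 3 Prune2 siRNA libraries sit above the 3 control libraries, by the widest margin as a ratio for Isg15, whose group means are 1.77 and 7.92 CPM.

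Isg15, the modifier itself, lies on chromosome 4 from 156199424 to 156200818 on the minus strand (GRCm38; protein coding; ENSMUSG00000035692). It had 39, 51 and 20 counts in control replicates 1, 2 and 3 and 222, 149 and 159 counts in Prune2 siRNA replicates 1, 2 and 3. Scaled, these were 1.90, 2.55 and 0.869 CPM in control cells and 10.5, 6.501 and 6.79 CPM with Prune2 siRNA. The lowest Prune2 siRNA library was 2.55-fold above the highest control library, and the control libraries themselves spanned a 2.93-fold range. The mean rose from 1.77 ± 0.848 to 7.92 ± 2.22 CPM (SD, n = 3), 4.52-fold (log2 fold change 2.18, SE 0.238, adjusted p = 2.73e-07). By log2 fold change Isg15 ranked 9 among the 591 genes called higher, whose median fold was 1.21. With each library left out in turn its log2 fold change stayed between 1.82 and 2.53. The 20 to 51 counts per control library limit the precision of the control level.

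Uba7, the E1 enzyme that activates ISG15 and hands it to the conjugating enzyme, is a plus-strand gene of chromosome 9, positions 107975505 to 107984060 (ENSMUSG00000032596, written UBA7 in the deposited table). It had 164, 178 and 178 counts in control libraries and 265, 254 and 244 with Prune2 siRNA. The levels were 8.01, 8.90 and 7.73 CPM in control cells and 12.5, 11.1 and 10.4 CPM with Prune2 siRNA. The groups did not overlap, and the control libraries were close together, with a 1.15-fold range. Uba7 rose 1.38-fold, from 8.21 ± 0.608 to 11.3 ± 1.07 CPM (log2 fold change 0.46, SE 0.107, adjusted p = 0.00395). Its exons share 233 bases with Gm20661, a gene model on the same strand that has 0 counts in all 6 libraries of the table, so how reads in the shared stretch were assigned is uncertain.

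Ube2l6, the E2 enzyme that carries activated ISG15, is a plus-strand gene of chromosome 2, positions 84798828 to 84810335 (ENSMUSG00000027078). Its counts were 57, 55 and 33 in control libraries and 84, 82 and 92 with Prune2 siRNA. These correspond to 2.78, 2.75 and 1.43 CPM in control cells and to 3.96, 3.58 and 3.93 CPM with Prune2 siRNA. Control replicate 3 lay well below the other control libraries, and the groups did not overlap. Ube2l6 rose 1.66-fold, from 2.32 ± 0.770 to 3.82 ± 0.214 CPM (log2 fold change 0.73, SE 0.216, adjusted p = 0.0279). Of the 5 calls this one was the least secure. Without control replicate 3 the log2 fold change was 0.46 and the adjusted p 0.189. The call was also lost when Prune2 siRNA replicate 1 (adjusted p = 0.0753) or replicate 3 (adjusted p = 0.0965) was left out and in DESeq2 (adjusted p = 0.0757), with a log2 fold change of 0.70 to 0.73 each time. In the authors' deposited table its adjusted p is 0.0857, so Ube2l6 misses the 0.05 threshold there, while the other 4 genes pass it.

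Herc6, the HECT-type ligase that attaches most ISG15 to proteins in mice, is a plus-strand gene of chromosome 6, positions 57581000 to 57664632 (ENSMUSG00000029798). It had 181, 207 and 198 counts in control libraries and 277, 271 and 285 with Prune2 siRNA. The levels were 8.84, 10.3 and 8.60 CPM in control cells and 13.1, 11.8 and 12.2 CPM with Prune2 siRNA. The margin between the groups was narrow, with the lowest Prune2 siRNA library 1.14-fold above the highest control library. Herc6 rose from 9.26 ± 0.946 to 12.4 ± 0.644 CPM (log2 fold change 0.42, SE 0.101, adjusted p = 0.00606), the smallest change of the 5. It missed the threshold in both limma fits to FPKM (adjusted p = 0.082 and 0.0948). Its exons share 1269 bases with Gm45193, a processed transcript on the same strand, and reads from the shared part cannot be assigned to one of the pair from these counts.

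Usp18, the protease that removes ISG15 and also restrains the type I interferon receptor, is a plus-strand gene of chromosome 6, positions 121245906 to 121270917 (ENSMUSG00000030107). Its counts were 67, 152 and 102 in control libraries and 373, 349 and 287 with Prune2 siRNA. Scaled, the control libraries were at 3.27, 7.60 and 4.43 CPM and the Prune2 siRNA libraries at 17.6, 15.2 and 12.3 CPM. Control replicate 2 was the highest of its group, yet it lay below the lowest Prune2 siRNA library by 1.61-fold. Usp18 rose 2.96-fold, from 5.10 ± 2.24 to 15.03 ± 2.68 CPM (log2 fold change 1.56, SE 0.175, adjusted p = 3.9e-07). It ranked 20 by log2 fold change among the genes called higher. Its exons share 124 bases with Gm44148, a long intergenic RNA on the opposite strand, and the sources used here do not say whether counting used strand.

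The same replicates tended to be high for several of the genes. Prune2 siRNA replicate 1 was the highest library of its group for all 5, and control replicate 2 was the highest control library for Isg15, Uba7, Herc6 and Usp18. For Ube2l6 control replicates 1 and 2 were nearly equal (2.78 and 2.75 CPM), as were Prune2 siRNA replicates 1 and 3 (3.96 and 3.93 CPM). Over the 6 libraries, with each gene centred on its own control mean on the log2 scale, Uba7 and Herc6 were the most alike pair, with a root mean square difference of 0.0625. Isg15 and Herc6 were the least alike (1.34), and Isg15 and Usp18 differed by 0.626. A difference of 1 on this scale is a 2-fold difference in relative level. Because centring is on the control mean only, this measure includes the difference in fold change and does not isolate variation among replicates.

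Enzyme and modifier transcripts changed by unequal amounts, which was examined as the ratio of each enzyme to Isg15 within a library, a quantity free of library scaling. For Uba7 the CPM ratio was 4.21, 3.49 and 8.90 in the control libraries and 1.19, 1.71 and 1.54 with Prune2 siRNA. It was 3.47-fold lower with Prune2 siRNA on the mean log2 scale, and the groups did not overlap. The Herc6 ratio was 4.64, 4.06 and 9.90 in control cells and 1.25, 1.82 and 1.79 with Prune2 siRNA, a 3.58-fold difference. The Ube2l6 ratio was 1.46, 1.08 and 1.65 in control cells and 0.378, 0.550 and 0.579 with Prune2 siRNA, 2.78-fold lower. For these 3 enzymes all Prune2 siRNA libraries were below all control libraries. An exact two-sided permutation test gave p = 0.1 for each, which is the smallest value 3 libraries against 3 can give, and 0.133 after adjustment over the 4 ratios.

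The ratio of Usp18 to Isg15 behaved differently from the others in that its groups overlapped. It was 1.72, 2.98 and 5.10 in control libraries and 1.68, 2.34 and 1.81 with Prune2 siRNA. The mean difference was -0.63 on the log2 scale (exact permutation p = 0.3, adjusted 0.3). It depended on single control libraries, being -0.24 without control replicate 3 and -1.02 without control replicate 1. Isg15 is in the denominator of all 4 ratios, so its low count in control replicate 3 raises all 4 in that library.

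**Figure D2:**
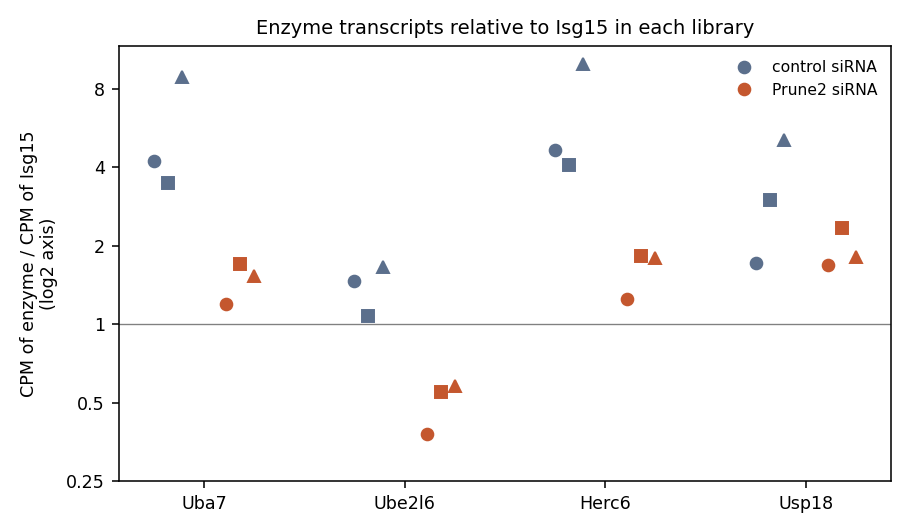
Ratio of the CPM of each enzyme to the CPM of Isg15 in each library (vertical axis, log2 spacing), with control siRNA in blue, Prune2 siRNA in orange and marker shapes for replicate numbers 1 (circle), 2 (square) and 3 (triangle). The groups are apart for Uba7, Ube2l6 and Herc6 and overlap for Usp18, where Prune2 siRNA replicate 2 (2.34) lies above control replicate 1 (1.72).

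Levels can be compared between genes only per transcript length. On the deposited FPKM scale, the control means were 2.87 ± 1.26 for Usp18, 2.54 ± 0.189 for Uba7, 2.51 ± 1.19 for Isg15, 1.93 ± 0.197 for Herc6 and 1.48 ± 0.488 for Ube2l6. Neighbours in this order overlapped between libraries, except that the lowest Herc6 value (1.80) was just above the highest Ube2l6 value (1.77). With Prune2 siRNA the order of the FPKM levels was Isg15 at 11.3 ± 3.17, Usp18 at 8.51 ± 1.5, Uba7 at 3.52 ± 0.323, Herc6 at 2.60 ± 0.137 and Ube2l6 at 2.46 ± 0.147. Isg15 and Usp18 overlapped, as did Herc6 and Ube2l6, while Usp18 lay above Uba7 and Uba7 above Herc6 in every library. Isg15 thus went from the middle of the 5 to the highest mean level. Divided instead by the full length of annotated exons, the control order in CPM per kilobase was Isg15 (2.35 ± 1.12), Usp18 (1.83 ± 0.803), Uba7 (1.23 ± 0.0909), Ube2l6 (1.16 ± 0.386) and Herc6 (0.997 ± 0.102), so the control order depends on the length used.

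Relatives of each gene that serve ubiquitin or other modifiers were examined by family. As background for the unadjusted counts below, 2651 of the 13248 genes tested had an unadjusted p under 0.05 in edgeR. Of the 18 other ubiquitin-like modifiers tested, 0 were called in either direction by edgeR (2 at an unadjusted p under 0.05, and 0 called by DESeq2 or limma-voom), with log2 fold changes from -0.06 to 0.18. Of 9 other E1-family enzymes tested, 0 were called by edgeR (1 at an unadjusted p under 0.05, 0 by DESeq2 or limma-voom). Uba1, the main ubiquitin-activating enzyme, was at 674.9 ± 10.98 CPM in control cells and 669 ± 1.10 with Prune2 siRNA (log2 fold change -0.01, SE 0.0334, adjusted p = 0.895). Of 33 other E2-family enzymes, 0 were called by edgeR (2 at an unadjusted p under 0.05, 0 by DESeq2 or limma-voom), and 1 was called without control replicate 1. Ube2l3, the closest relative of Ube2l6 and a carrier of ubiquitin, was at 173 ± 1.87 and 171 ± 0.872 CPM (log2 fold change -0.02, SE 0.0356, adjusted p = 0.84).

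The ligase and protease families gave a like picture. Of 24 other HECT ligases tested, 0 were called by edgeR (4 at an unadjusted p under 0.05, 0 by DESeq2 or limma-voom), although 1 or 2 were called in 6 of the 15 alternative analyses, including those without control replicate 2 and without Prune2 siRNA replicate 1 or 2 (1 each). Herc3 and Herc4, small HERC-family ligases, had log2 fold changes of -0.08 (SE 0.0598, adjusted p = 0.504) and -0.05 (SE 0.0455, adjusted p = 0.633). Of 45 other USP-family proteases tested, 1 was called higher and 0 lower. That gene was Usp9x, at 530.8 ± 17.8 CPM in control cells and 584 ± 48.0 with Prune2 siRNA (log2 fold change 0.14, SE 0.0446, adjusted p = 0.0481). Its groups overlapped. Leaving out Prune2 siRNA replicate 2 lowered the value for Usp9x to 0.07 (adjusted p = 0.33). The call was also lost without control replicate 1 (adjusted p = 0.21), control replicate 2 (adjusted p = 0.205) or Prune2 siRNA replicate 3 (adjusted p = 0.0689), and it held in 8 of the 15 alternative analyses. The share called in each of these families was below the background of 10.3%. The 4 HECT ligases at an unadjusted p under 0.05 stand beside 2651 of all 13248 genes tested at that threshold.

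**Figure D3:**
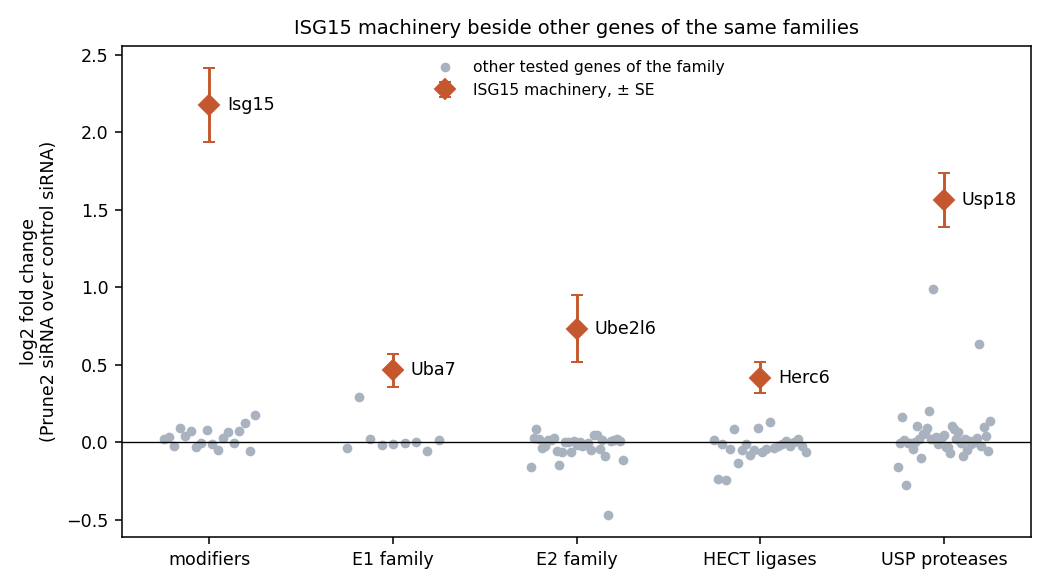
Log2 fold change (Prune2 siRNA over control siRNA, vertical axis) of each ISG15 machinery gene (orange diamonds, bars ± SE) beside the other tested genes of its family (grey points), by family along the horizontal axis. Isg15, at 2.18, and Usp18, at 1.56, stand above all grey points of their families, and none of the other modifiers passes 0.18.

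Further enzymes reported to act on ISG15 were listed separately. Of 8 other reported ligases and deconjugating proteases, all tested, 1 was called higher and 0 lower, a share near the background of 10.3% called in either direction. Trim25, a RING-type ligase that can act on both ubiquitin and ISG15 and that is needed for RIG-I signalling, was at 47.3, 53.0 and 53.3 CPM in control libraries and at 79.4, 71.5 and 70.9 CPM with Prune2 siRNA. It rose 1.44-fold, from 51.2 ± 3.38 to 73.9 ± 4.75 CPM (log2 fold change 0.53, SE 0.0553, adjusted p = 1.31e-07). Arih1, the mouse gene of the ligase HHARI, was at 214.9 ± 6.79 and 208 ± 0.678 CPM (log2 fold change -0.05, SE 0.0362, adjusted p = 0.529).

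Partners of free ISG15 and of USP18 went in both directions. Of 6 partner genes tested, 1 was called higher and 2 lower, beside the background of 10.3% called in either direction. Itgal and Itgb2 encode the chains of LFA-1, the leukocyte integrin reported as the surface receptor of secreted ISG15. Itgal was at 11.2, 13.2 and 8.43 CPM in control libraries and at 0.849, 1.31 and 1.32 CPM with Prune2 siRNA (log2 fold change -3.21, SE 0.196, adjusted p = 9.63e-12). Itgb2 was at 17.0, 18.4 and 15.7 CPM in control libraries and at 6.80, 6.15 and 8.07 CPM with Prune2 siRNA (log2 fold change -1.28, SE 0.106, adjusted p = 2.3e-09). Itgb2 is also on the leukocyte marker list, of which 21 of 22 were lower. Stat2, which tethers USP18 to the interferon receptor, rose 1.68-fold, from 21.7 ± 2.52 to 36.4 ± 2.57 CPM (log2 fold change 0.75, SE 0.0759, adjusted p = 8.18e-08).

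Of the 14 proteins listed as reported ISG15 substrates, 13 had a transcript that passed the filter. Of these, 3 were called higher and 0 lower, beside the background of 10.3% called in either direction, with a median log2 fold change of 0.01. Those described here are themselves interferon-induced genes. Ifih1, the RNA sensor MDA5, rose 1.42-fold (24.8 ± 2.39 to 35.3 ± 2.76 CPM, adjusted p = 1.36e-05). Eif2ak2, the RNA-activated kinase PKR, rose 1.32-fold (46.7 ± 4.16 to 61.3 ± 4.67 CPM, adjusted p = 5.47e-05). Mx1, an antiviral GTPase, did not pass the filter, with 1, 1 and 3 counts in control libraries and 13, 5 and 10 counts with Prune2 siRNA.

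Upstream of the 5 genes, the type I interferon receptor and its kinases were compared with transcription factors of interferon signalling. Of 11 genes of this list tested, 4 were called higher and 0 lower, beside the background of 10.3% called in either direction. The 4 were all transcription factors, but Irf1, Irf2 and Irf3 of the same list were not called. Their log2 fold changes were 0.10 (adjusted p = 0.384), 0.07 (adjusted p = 0.626) and -0.16 (adjusted p = 0.0784). Irf3 was lower in every Prune2 siRNA library than in any control library. Irf9, a DNA-binding factor of type I interferon signalling, was at 17.9, 23.8 and 16.9 CPM in control libraries and at 40.3, 39.0 and 35.7 CPM with Prune2 siRNA (log2 fold change 0.98, SE 0.0875, adjusted p = 1.03e-08). Irf7, the factor that amplifies interferon production, was at 1.66, 3.20 and 1.22 CPM in control libraries and at 11.8, 7.55 and 6.75 CPM with Prune2 siRNA (log2 fold change 2.12, SE 0.239, adjusted p = 4.25e-07). Stat2, whose values are given above, was also among those called. The receptor chains had log2 fold changes of -0.03 for Ifnar1 (SE 0.0372, adjusted p = 0.762) and -0.04 for Ifnar2 (SE 0.0655, adjusted p = 0.805).

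Transcripts of the interferons themselves were barely detected. Of 21 interferon genes listed, none passed the filter, and 18 had 0 counts in all 6 libraries, where a count of 0 allows up to 0.129 to 0.149 CPM depending on the library. Ifnb1 had 1 count and Ifne 2 counts, all in Prune2 siRNA replicate 3, and Ifnz had 21 counts over the 6 libraries. These limits cover counting error only.

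Usp18 is a feedback inhibitor of interferon signalling as well as a protease, and of 8 other such inhibitors tested 0 were called higher and 1 lower, a share near the background of 10.3%. That gene was Ptpn6, a phosphatase of blood cells, which fell from 17.7 ± 0.956 to 14.2 ± 1.08 CPM (log2 fold change -0.32, SE 0.0837, adjusted p = 0.0115) in the libraries where 21 of 22 leukocyte markers were lower. Its call was lost in 6 of the 15 alternative analyses, among them those that left out control replicate 2 (adjusted p = 0.0594), Prune2 siRNA replicate 2 (adjusted p = 0.068) or Prune2 siRNA replicate 3 (adjusted p = 0.0538).

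Most tested genes of the wider interferon-stimulated program were higher as well. Of 53 other interferon-stimulated genes tested, 47 were called higher and 0 lower, beside the background of 4.46% called higher, and the median log2 fold change was 0.86. Over the 15 alternative analyses the number called higher lay between 40 and 49. Ifit3, an antiviral gene of the IFIT family, rose 2.63-fold (16.5 ± 3.62 to 43.5 ± 2.19 CPM, adjusted p = 5.57e-11). Other genes of that family are on the same list, and how reads alike between them were assigned is not known. Ifi27 rose 2.38-fold (13.4 ± 1.41 to 31.9 ± 2.12 CPM, adjusted p = 2.03e-11), and the secreted glycoprotein gene Lgals3bp rose 1.74-fold (85.7 ± 5.11 to 149 ± 15.1 CPM, adjusted p = 1.04e-10). The 6 not called were Dhx58, Trim30a, Phf11d, Epsti1, Psmb8 and Psmb9, with log2 fold changes from -0.10 to 1.08. Of the 57 genes listed, 4 missed the filter: Mx1, described above, Oas2, Ifi27l2a and Zbp1. In control libraries Oas2 had 0, 9 and 4 counts, Ifi27l2a 2, 2 and 1, and Zbp1 9, 6 and 10. With Prune2 siRNA they had 7, 5 and 8, 1, 2 and 0, and 6, 6 and 5 counts. A scarce gene could pass the filter through its higher level in 1 group alone. The list was chosen with earlier results on these libraries known, so its direction is no independent evidence.

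The genes whose pattern over the 6 libraries was most like each of the 5 were found among 12546 genes with at least 1 CPM in the higher group, by the root mean square difference between control-centred log2 CPM values. For Isg15 they were Irf7 (0.217), Xaf1 (0.361) and Rtp4 (0.392), with log2 fold changes of 2.12, 2.25 and 2.68. For Usp18 they were Oas1a (0.161), Ifi44 (0.173) and Apol9b (0.231), with log2 fold changes of 1.49, 1.66 and 1.88. Oas1a and Apol9b have close copies in the mouse genome, so their counts are uncertain. For Uba7 they were Irgm1 (0.0343), Parp12 (0.0358) and Ifih1 (0.0508), with log2 fold changes of 0.51, 0.46 and 0.51. For Herc6 they were Igf2bp1 (0.0316), Parp12 (0.0421) and Tmem246 (0.0537), with log2 fold changes of 0.42, 0.46 and 0.36, and Tmem246 missed the threshold (adjusted p = 0.059). For Ube2l6 they were Serpini1 (0.186), Fgf18 (0.191) and Pparg (0.207). Of this last set, Serpini1 (adjusted p = 0.244) and Pparg (adjusted p = 0.448) were not called, and Fgf18 (adjusted p = 0.0377) was called in 8 of the 15 alternative analyses and in none of the 6 fits that left out a library. These are descriptions of 6 libraries that share depth and scaling. The measure includes the fold change, so genes of like fold change rank near each other.

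**Figure D4:**
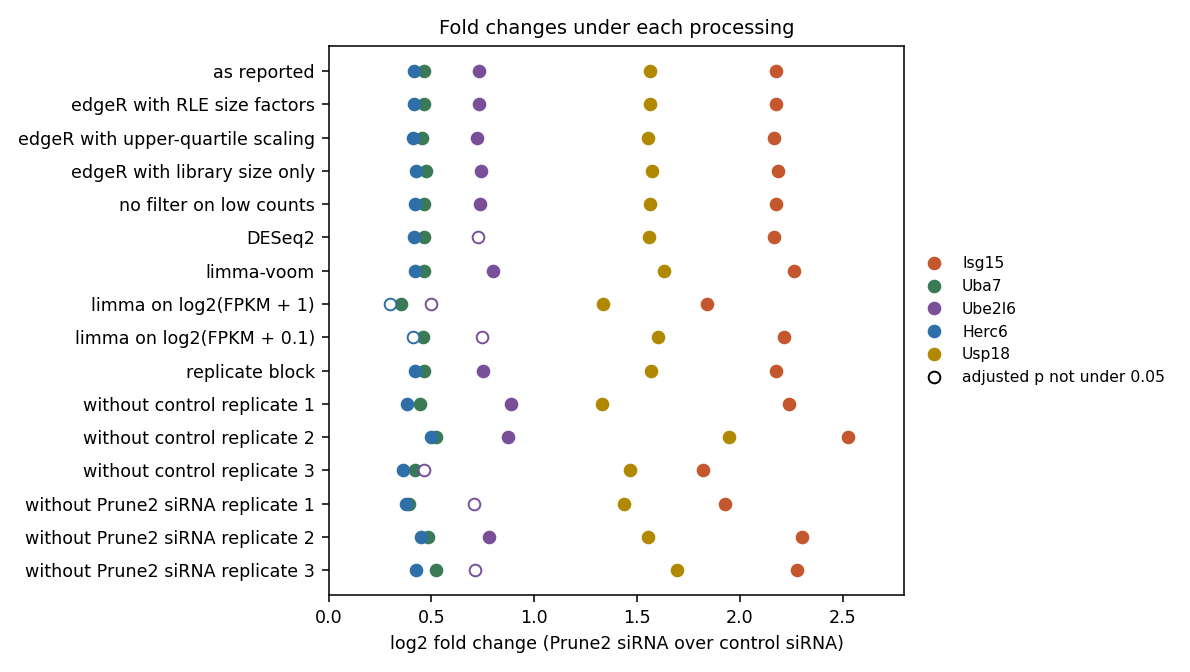
Log2 fold change (horizontal axis, Prune2 siRNA over control siRNA) of the 5 ISG15 machinery genes in the analysis reported and in 15 alternatives (rows), with filled points for an adjusted p under 0.05 and open points otherwise. Isg15 lies between 1.82 and 2.53 and Usp18 between 1.33 and 1.95 in every row, and the open points belong to Ube2l6 and Herc6.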

How the data were processed

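RNA was sequenced in 6 libraries, and the groups and replicate numbers were read from the sample titles. The authors deposited 1 table with a read count and an FPKM value per gene and library, and with their own log2 fold change, p-value and adjusted p-value, per the file headers. The submitters' processing notes name the builds GRCm38 and mm10. The aligner, the counting tool, its use of strand and the authors' test are not given in the sources at hand.

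Gene identifiers were matched to GENCODE M21, and 22219 of 22274 were found. The main test was edgeR 4.0.16 under R 4.3.3 on the deposited counts (TMM, filterByExpr, glmQLFit and glmQLFTest, Benjamini-Hochberg over 13248 genes). Standard errors were derived from the F statistic (absolute log2 fold change over the root of F). The procedure was tested on simulated data. Alternatives were other scalings, no filter, DESeq2 1.42.0, limma 3.58.1 with voom, limma on log2(FPKM + 1) and log2(FPKM + 0.1) for genes with a mean FPKM of at least 0.1, the replicate block, and each library left out. Ratios used an exact two-sided permutation test over libraries.

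The 5 genes and the lists were chosen with earlier results of these data known. Genes named are the 5, Prune2, relatives set by role, up to 4 called genes per list and direction with the smallest adjusted p, and 3 genes most like each of the 5. A gene that this rule names is not reported here. Thy1, S100a4, Dcn, Lum, Col1a2, Pdgfrb, Col3a1, Cdh1, Umod, Aqp2, Slc34a1, Cd14, Siglech, Ccr9, Mx1, the interferon ligands and the uncalled interferon-stimulated genes fall outside that rule and were named after their values were seen, to describe a marker or to resolve a count. Irf1, Irf2, Irf3 and the interferon-stimulated genes that missed the filter were likewise named outside the rule, to resolve a count. Replicate pairs within a group differed by 2.57 to 3.92 in chi-square per degree of freedom. This exceeds sampling noise, and each library was kept as its own replicate. Promoters are from RefSeq (GRCm38.p6).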

Additional observations from a re-analysis of the deposited data

How the results depend on the processing

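Isg15, Uba7 and Usp18 kept their direction and their call in all 15 alternatives, with adjusted p of at most 0.00414, 0.0483 and 0.00576. All 5 genes had a positive log2 fold change in all 15. Herc6 lost its call in 2 and Ube2l6 in 6, with log2 fold changes of 0.30 to 0.50 and 0.46 to 0.89. In the limma fits to log2(FPKM + 1) and log2(FPKM + 0.1), 3 of the 5 genes were called higher, 752 and 756 genes were called in all against 1364, and Prune2 had log2 fold changes of -0.2382 (adjusted p = 0.146) and -0.4324 (adjusted p = 0.187). The cause was not tested. DESeq2 called 4 of the 5. With single libraries left out, 4 or 5 were called. The log2 fold change of Ifnar2 was -0.04, ranged from -0.09225 to 0.02309 with single libraries left out, and turned positive without control replicate 3. Ifnar2 was called in none of these fits. With the replicate block, 5 of the 5 genes and 1490 genes in all were called. Deviations of same-numbered libraries correlated at 0.151, -0.00511 and 0.0542 over 9063 genes, and those of other pairs at -0.204 to 0.149. Not every library correlated best with its own number. The labels do not say what the numbers mean, and these values do not settle whether they pair the libraries. The 20 to 57 counts per control library for Isg15 and Ube2l6 limit the precision of their folds.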
